A study of Mus musculus with 14 samples.

Results

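The genes followed here are 10 transcriptional targets of the transcription factor p53: Cdkn1a, Phlda3, Ccng1, Sesn1, Mdm2, Trp53inp1, Eda2r, Zmat3, Aen and Sesn2. They were the rows of the deposited count table that carry these gene names, 10 of the 54532 genes in it, and all 10 were among the 15915 genes with enough reads to be tested. RNA was sequenced in 14 libraries of cells sorted from the submandibular gland, a large salivary gland, of adult mice of the genotype TertCreERT2/+ Rosa26LSL-tdTomato/+. In these mice a tamoxifen-dependent Cre recombinase is made from the locus of Tert, the catalytic subunit of telomerase, and switches on the red reporter tdTomato, so the colour marks cells in which Cre has acted and need not track Tert RNA at sorting. The sort kept cells that excluded DAPI, a dye that enters dead cells, and carried EpCAM, an epithelial surface protein. The 4 groups were tdTomato-positive cells (called Tert+) without radiation (no RT, n = 3), tdTomato-negative cells (Tert-) without radiation (n = 3), and both populations from glands given 15 Gy (RT, n = 4 each). The labels give neither the time from RT to sorting, nor the tamoxifen schedule, nor whether animals were pooled. They also leave unsaid whether each replicate was its own animal, and whether Tert+ and Tert- libraries share animals. The p-values therefore cover the spread among these libraries, which may be technical.

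p53 is held at a low level by the ubiquitin ligase Mdm2, and DNA breaks activate the kinases Atm and Chek2, which free p53 to switch on its target genes. Its targets stop the cell cycle, help repair or metabolic adaptation, promote cell death, or, like Mdm2, feed back on p53 itself. In mouse salivary glands p53 is known to take part in the early loss of secretory cells after radiation.

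Total counts per library ran from 5520412 to 15943597. Groups were taken from the sample titles. A separate cell type field of the labels names the opposite population in 14 of 14 libraries. If that field were right, the RT effects given below for Tert+ and Tert- would swap names and each difference between the populations would change sign, while the RT effect averaged over both would stay as it is. The running numbers in the sample descriptions are higher for each irradiated library than for any other, so anything that goes with that numbering cannot be told apart from RT, and the labels do not say what the numbers count. The summed level of 10 epithelial markers was 99.1 to 618 CPM, the count scaled to the library's total, per library, against 14590 to 25150 CPM for 9 B cell markers, although EpCAM was the marker sorted for. Markers of the gland's secretory epithelium were abundant too, with sums of 1455 to 21476 CPM for 9 acinar cell markers and 724 to 14208 CPM for 6 granular duct markers. The acinar sum was highest in Tert+ and Tert- replicate 1 without RT, at 21476 and 14355 CPM, and at most 7039 CPM in the other 12 libraries. Summed over 8 germinal centre B cell markers, the level was 639 to 1040 CPM without RT and 359 to 607 CPM after it. After RT, 7 of these 8 markers fell in Tert+, 4 fell in Tert- and 7 fell in the average of both populations, where 0.873%, 0.804% and 7% of all genes tested fell. All 9 T cell markers had log2 fold changes below 0 in both populations, with medians of -0.74 in Tert+ and -1.78 in Tert-, and 2 of them fell in the average. The sum of 9 macrophage markers went from 1607 to 1944 CPM in Tert- without RT to 263 to 1236 CPM after it, with all 9 log2 fold changes below 0 and 0 past the threshold (edgeR). In Tert+ that sum was 125 to 284 CPM without RT and 107 to 199 CPM after it. There 4 of the 9 log2 fold changes were above 0 and 1 marker rose, where 1.11% of all genes tested rose. In the average 2 of the 9 fell, where 7% of all genes tested fell. The part of these markers in the results below was not tested. In such bulk libraries, fewer cells of a type and less RNA per cell cannot be told apart.

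The first comparison asked which targets changed with RT when the effects in Tert+ and Tert- were averaged with equal weight. Cdkn1a, Phlda3, Ccng1 and Sesn1 rose, 4 of the 10 genes, none fell, and 6 did not pass the test (edgeR quasi-likelihood test, adjusted p threshold 0.05 over all genes tested). Of all genes tested, 6.36% rose and 7% fell in the same comparison. The fitted change was above 0 for 10 of 10 targets, with a median log2 fold change of 0.60 against -0.0099 for all genes.

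Cdkn1a encodes p21, an inhibitor of cyclin-dependent kinases that halts the cell cycle. In Tert+ libraries without RT it was at 12.1, 18.0 and 12.8 CPM for replicates 1 to 3, and after RT at 56.5, 65.5, 72.3 and 54.0 CPM for replicates 1 to 4. In Tert- it was at 105, 17.0 and 20.3 CPM without RT and at 73.4, 76.3, 94.8 and 91.6 CPM after it. The groups did not overlap in Tert+, whereas in Tert- the library without RT numbered 1 lay above all libraries after RT. Averaged over both populations Cdkn1a rose by a log2 fold change of 1.47 ± 0.334 (SE), a 2.76-fold change with a 95% interval of 1.69 to 4.52 (adjusted p = 0.0108, edgeR). A transcript on the other strand that overlaps it, AC167363.2, had 21 reads in all against 7356 for Cdkn1a.

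Phlda3 encodes a small lipid-binding protein that restrains the survival kinase Akt by competing for its membrane lipid. It was at 3.67, 2.66 and 0.835 CPM in Tert+ and at 1.47, 4.02 and 0.735 CPM in Tert- without RT. After RT it was at 15.6, 12.6, 16.6 and 9.75 CPM in Tert+ and at 18.0, 26.2, 13.1 and 16.5 CPM in Tert-. The lowest library after RT was above the highest without it. Counts were low, at 7 to 46 reads per library without RT and 78 to 202 after it. Phlda3 had the largest fitted rise of the 4, a log2 fold change of 2.83 ± 0.426 or 7.12-fold (95% interval 3.80 to 13.3, adjusted p = 0.00129, edgeR).

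Ccng1 encodes cyclin G1, which binds a regulatory subunit of protein phosphatase 2A and helps Mdm2 keep p53 low. Its levels without RT were 107, 101 and 98.5 CPM in Tert+ and 86.7, 94.7 and 109 CPM in Tert-. After RT they were 180.3, 155, 175 and 166 CPM in Tert+ and 165, 165, 168 and 130 CPM in Tert-. The 8 libraries after RT were all above the 6 without it. The rise was the most precise of the 10, with a log2 fold change of 0.71 ± 0.095 or 1.64-fold (95% interval 1.43 to 1.89, adjusted p = 0.000644, edgeR).

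Sesn1 encodes sestrin 1, a stress protein that binds the GATOR2 complex and lowers the activity of the growth kinase complex mTORC1. It was at 58.5, 86.4 and 101 CPM in Tert+ and at 76.5, 72.0 and 89.6 CPM in Tert- without RT. After RT it was at 140.4, 126, 161 and 122 CPM in Tert+ and at 112, 154, 147 and 136 CPM in Tert-. Here too the 8 libraries after RT lay above the 6 without it. The log2 fold change was 0.77 ± 0.131 or 1.70-fold (95% interval 1.40 to 2.07, adjusted p = 0.00226, edgeR). An unclassified transcript on the same strand, 9930024M15Rik, overlaps Sesn1 and had 1360 reads in all libraries together against 15380 for Sesn1, and how reads shared by both were counted is not stated.

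Ranges of libraries with and without RT, both populations together, did not overlap for 3 of the 10 targets, Phlda3, Ccng1 and Sesn1, all higher after RT, against 1.82% of all genes tested that were higher and 1.33% that were lower. The 4 rises remained past the threshold when any 1 of the 14 libraries was left out, with log2 fold changes of 1.27 to 2.15 for Cdkn1a, 2.62 to 3.28 for Phlda3, 0.69 to 0.77 for Ccng1 and 0.68 to 0.85 for Sesn1.

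**Figure D1:**
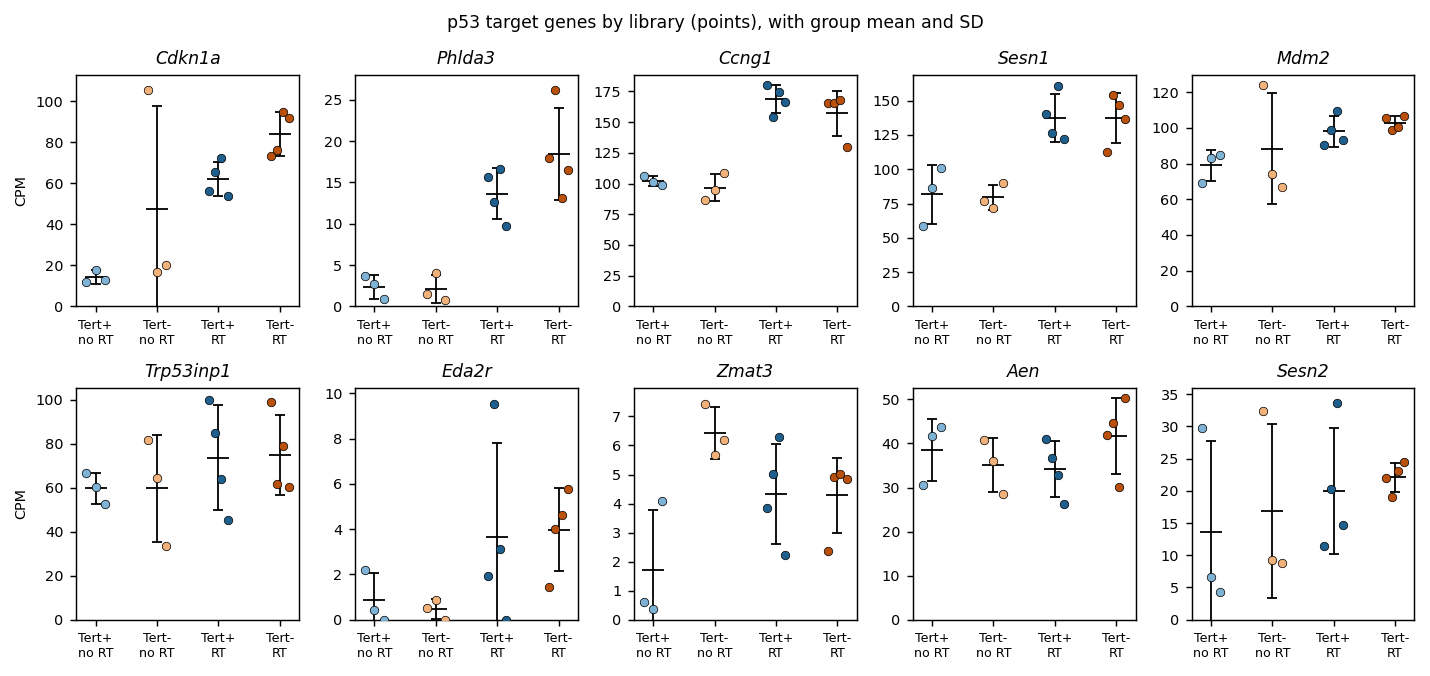
Level of each of the 10 p53 targets in every library, in CPM on the vertical axes, by group on the horizontal axes, with points for libraries and bars for the group means and their SD. All 8 libraries after RT lie above all 6 without RT for Phlda3, Ccng1 and Sesn1, and the Tert- library without RT numbered 1 is the highest point for Cdkn1a at 105 CPM and for Mdm2 at 124 CPM.

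These 4 genes lie on chromosomes 17 (Cdkn1a, ENSMUSG00000023067, 29090976 to 29100727), 1 (Phlda3, ENSMUSG00000041801, 135766119 to 135769136), 11 (Ccng1, ENSMUSG00000020326, 40748552 to 40755311, minus strand) and 10 (Sesn1, ENSMUSG00000038332, 41809935 to 41908424) of mm10. The 250 bases before a RefSeq transcript start (GRCm38.p6, the assembly called mm10) are printed for them because they are the 4 that rose together. RefSeq promoters were matched for 8 of the 10 targets and gave 11 starts. The windows were searched on both strands for the p53 response element, 2 half-sites of 10 bases each with the core letters CNNG intact, up to 2 mismatches elsewhere and a spacer of 0 to 13 bases. Capitals mark every base of a matched half-site, including those of matches that share a half-site, and lower case marks the rest. For Cdkn1a and Sesn1, which have 2 starts each in the table, the window with a match is shown.
Cdkn1a, first start, chr17:29090729-29090978, plus strand: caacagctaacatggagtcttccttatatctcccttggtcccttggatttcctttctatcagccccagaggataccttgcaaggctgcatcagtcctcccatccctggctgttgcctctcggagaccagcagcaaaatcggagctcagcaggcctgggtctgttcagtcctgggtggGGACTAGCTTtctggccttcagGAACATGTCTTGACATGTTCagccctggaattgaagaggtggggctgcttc
Phlda3, chr1:135765835-135766084, plus strand: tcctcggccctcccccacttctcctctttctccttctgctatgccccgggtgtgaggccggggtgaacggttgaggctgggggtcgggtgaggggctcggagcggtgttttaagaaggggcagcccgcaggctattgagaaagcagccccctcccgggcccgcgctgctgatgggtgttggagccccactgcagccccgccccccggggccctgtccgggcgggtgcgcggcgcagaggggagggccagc
Ccng1, chr11:40755287-40755536, minus strand: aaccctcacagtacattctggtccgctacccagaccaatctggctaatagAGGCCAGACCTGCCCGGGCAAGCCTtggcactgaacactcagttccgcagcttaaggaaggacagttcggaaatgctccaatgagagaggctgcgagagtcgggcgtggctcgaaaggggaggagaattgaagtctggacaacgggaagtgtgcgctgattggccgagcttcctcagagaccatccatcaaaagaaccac
Sesn1, second start, chr10:41887189-41887438, plus strand: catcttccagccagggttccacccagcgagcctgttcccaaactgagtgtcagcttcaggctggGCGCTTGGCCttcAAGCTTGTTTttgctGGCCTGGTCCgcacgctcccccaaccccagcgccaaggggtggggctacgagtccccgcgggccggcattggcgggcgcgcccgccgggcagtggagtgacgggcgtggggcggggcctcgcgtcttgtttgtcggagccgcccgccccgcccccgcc
The Cdkn1a window held 2 matches that share the half-site GAACATGTCT. GGACTAGCTT before it made a match with 0 mismatches and a spacer of 12 bases, and TGACATGTTC directly after it made one with 1 mismatch. In Ccng1 the adjacent half-sites AGACCTGCCC and GGGCAAGCCT made a match with 1 mismatch, and an overlapping pair had 2 mismatches. In Sesn1 both matches had 2 mismatches, with spacers of 3 and 5 bases. In the windows of Phlda3, Mdm2, Eda2r, Aen and Sesn2 no such pair of half-sites was found, though the Mdm2 window and 1 of the Aen windows each held 1 half-site without a mismatch. Of 32851 RefSeq promoter windows of this length, 3.34% held a match with up to 2 mismatches, 0.505% one with up to 1 and 0.0639% one with 0. A match is a likeness of letters and was not tested for binding. Only the 250 bases before each start were searched, so a site elsewhere, such as within the gene, would have been missed.

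Mdm2, the ubiquitin ligase that marks p53 for destruction and is itself a p53 target, did not pass the test in the average (log2 fold change 0.26 ± 0.132, 95% interval -0.017 to 0.54, adjusted p = 0.202, edgeR). It was at 69.1, 83.1 and 84.6 CPM in Tert+ without RT and at 90.4, 98.9, 109.7 and 93.1 CPM after it, so these ranges did not overlap. In Tert- it was at 124, 74.0 and 67.0 CPM without RT and at 105, 98.6, 100.2 and 107 CPM after it. The library that was highest for Cdkn1a without RT was thus also the highest for Mdm2 among all 14.

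The sestrin paralog Sesn2, which senses leucine and acts on the same mTORC1 branch, was at 29.8, 6.58 and 4.33 CPM in Tert+ without RT and at 11.4, 20.2, 33.6 and 14.7 CPM after it. In Tert- it was at 32.4, 9.26 and 8.82 CPM without RT and at 21.9, 19.1, 23.0 and 24.4 CPM after it. Replicate 1 without RT was the high library in both populations, within the range after RT in Tert+ and above all libraries after RT in Tert-. The same 2 libraries had the highest acinar marker sums, whose part in these levels was not tested. The averaged log2 fold change was 0.48 ± 0.429 (adjusted p = 0.501, edgeR). The transcript Gm12981 overlaps Sesn2 and had 149 reads in all against 2434 for Sesn2.

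Eda2r encodes a receptor of the tumour necrosis factor family that binds ectodysplasin A2. Its counts were 18, 7 and 0 reads in Tert+ and 7, 10 and 0 in Tert- without RT. After RT they were 22, 59, 23 and 0 reads in Tert+ and 8, 31, 35 and 67 in Tert-. The ranges overlapped in Tert+ and did not in Tert-. A count of 0 allows up to 0.228 CPM in Tert+ replicate 3 without RT, 0.315 CPM in Tert- replicate 3 without RT and 0.257 CPM in Tert+ replicate 4 after RT, counting error only. The averaged log2 fold change was 2.56 ± 1.11 (95% interval 0.20 to 4.91, unadjusted p = 0.0351, adjusted p = 0.139, edgeR), the least precise of the 10.

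Trp53inp1, a stress-induced nuclear protein that acts with p53 and in autophagy, ranged from 33.6 to 81.7 CPM without RT and from 45.5 to 100.1 CPM after it (averaged log2 fold change 0.31 ± 0.211, adjusted p = 0.359, edgeR). Aen, a nuclease that acts in cell death, ranged from 28.4 to 43.6 CPM without RT and from 26.2 to 50.4 CPM after it (0.036 ± 0.165, adjusted p = 0.922, edgeR). For both genes the groups overlapped in either population. The averaged value for Aen was below 0 without Tert+ replicate 1 (-0.031) or Tert- replicate 3 (-0.025) of the groups without RT.

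Zmat3, a zinc finger protein that binds RNA and steers splicing, was at 0.611, 0.379 and 4.10 CPM in Tert+ and at 7.44, 5.68 and 6.19 CPM in Tert- without RT. After RT it was at 3.83, 5.01, 6.28 and 2.22 CPM in Tert+ and at 2.36, 4.93, 5.03 and 4.83 CPM in Tert-. Without RT the populations did not overlap, with Tert+ lower, and in Tert- every library after RT was below every library without it. The fitted log2 fold changes had opposite signs, 1.34 ± 0.762 in Tert+ and -0.58 ± 0.724 in Tert- (adjusted p = 0.378 and 0.733, edgeR), and neither passed the test.

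**Figure D2:**
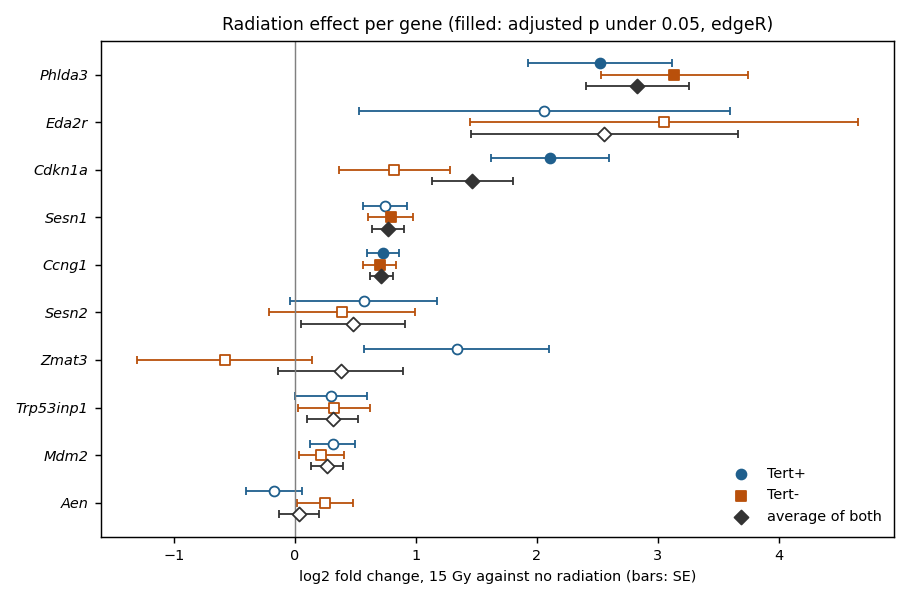
Log2 fold change with RT of each target in Tert+, in Tert- and averaged over both, with bars of 1 SE and filled points where the adjusted p was under 0.05, from the edgeR fit over 14 libraries. Cdkn1a stands at 2.11 in Tert+ and 0.82 in Tert-, Phlda3 at 2.52 and 3.14, and Ccng1 at 0.73 and 0.70.

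Within the Tert+ population alone, Cdkn1a, Phlda3 and Ccng1 rose with RT, 3 of the 10 targets, none fell and 7 did not pass (edgeR). Of all genes tested, 1.11% rose and 0.873% fell. Cdkn1a rose by a log2 fold change of 2.11 ± 0.488 or 4.32-fold (adjusted p = 0.0400), Phlda3 by 2.52 ± 0.595 or 5.75-fold (adjusted p = 0.0416) and Ccng1 by 0.73 ± 0.134 or 1.66-fold (adjusted p = 0.0167). Sesn1 was close to the threshold at 0.74 ± 0.185 (adjusted p = 0.0523). The ranges with and without RT did not overlap for 5 targets, these 4 and Mdm2, all higher after RT, against 7.28% of genes tested higher and 8.25% lower without overlap. Among the 14 fits that each left out 1 library, Cdkn1a passed in 4, Phlda3 in 5, Ccng1 in 12 and Sesn1 in 2, with adjusted p-values up to 0.157, 0.165, 0.0978 and 0.143, while the log2 fold changes stayed within 2.01 to 2.32, 2.11 to 2.95, 0.70 to 0.77 and 0.55 to 0.92. The call for Ccng1 was lost without Tert+ replicate 2 or replicate 3 without RT. Those for Cdkn1a and Phlda3 were lost without either of these 2 libraries, without Tert+ replicate 1, 2 or 3 after RT, or without any 1 of the 4 Tert- libraries after RT, and that for Cdkn1a also without Tert+ replicate 1 without RT. A fit on the 7 Tert+ libraries alone called Cdkn1a and no other target, and a fit with the replicate number as a block gave Cdkn1a an adjusted p of 0.0672 and Sesn1 one of 0.0388 (edgeR).

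Within the Tert- population, Phlda3, Ccng1 and Sesn1 rose with RT, again 3 of the 10 targets with none falling (edgeR). Of all genes tested, 0.817% rose and 0.804% fell. Phlda3 rose by a log2 fold change of 3.14 ± 0.611 or 8.80-fold (adjusted p = 0.0282), Ccng1 by 0.70 ± 0.134 or 1.62-fold (adjusted p = 0.0257) and Sesn1 by 0.79 ± 0.186 or 1.73-fold (adjusted p = 0.0449). Cdkn1a was at 0.82 ± 0.459 (95% interval -0.16 to 1.80, adjusted p = 0.359) and Mdm2 at 0.22 ± 0.187 (adjusted p = 0.589). Ranges did not overlap for 5 targets, with Phlda3, Ccng1, Sesn1 and Eda2r higher and Zmat3 lower after RT, against 9.7% of genes higher and 9.22% lower. With 1 library left out, Phlda3 passed in 10 of 14 fits, Ccng1 in 9 and Sesn1 in 5, while the log2 fold changes stayed within 2.74 to 4.03, 0.64 to 0.81 and 0.72 to 0.89. Phlda3 was lost without Tert- replicate 3 without RT or without replicate 2, 3 or 4 after RT. Ccng1 was lost without Tert- replicate 2 or 3 without RT or replicate 1, 2 or 3 after RT, and Sesn1 without any 1 of the 7 Tert- libraries or without Tert+ replicate 2 without or after RT. A fit on the 7 Tert- libraries alone called Phlda3 and no other target (edgeR).

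**Figure D3:**
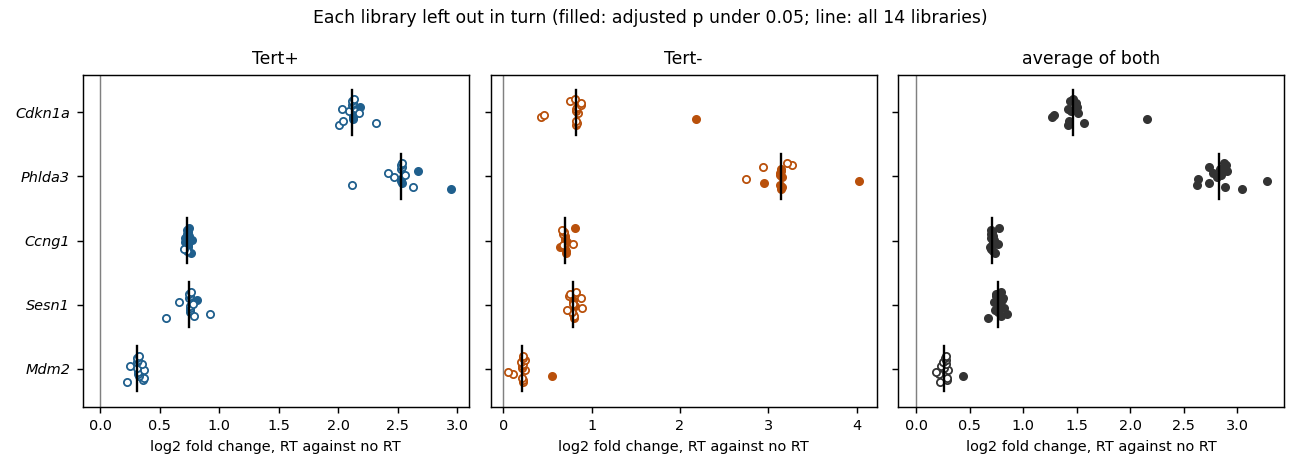
Log2 fold change with RT of Cdkn1a, Phlda3, Ccng1, Sesn1 and Mdm2 when each of the 14 libraries was left out in turn, for Tert+, Tert- and the average, with filled points where the adjusted p was under 0.05. In the average the 4 risers are filled in every fit, and in Tert- the point of Cdkn1a at 2.19, from the fit without Tert- replicate 1 of the group without RT, stands apart from its others.

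That Cdkn1a did not pass in Tert- rested on 1 library. Without Tert- replicate 1 of the group without RT, its log2 fold change in Tert- was 2.19 ± 0.246 (adjusted p = 0.000961, edgeR), close to its 2.12 in Tert+ from the same libraries. That library was the highest of all 14 for Cdkn1a, at 105 CPM, and those left in its group were at 17.0 and 20.3 CPM. A larger fold change and a smaller SE thus follow from leaving it out, and the likeness to Tert+ is a description. Mdm2 then also passed in Tert-, at 0.55 ± 0.152 (adjusted p = 0.0476), and Sesn1 no longer did, at 0.78 ± 0.216 (adjusted p = 0.0510). In the average 5 targets then rose, Cdkn1a by 2.15 and Mdm2 by 0.44 (adjusted p = 7.5e-06 and 0.00949), Sesn2 was at 0.94 ± 0.423 (adjusted p = 0.152), and 2516 genes passed in place of 2126. In Tert+ 4 targets rose, with Sesn1 added at an adjusted p of 0.0427, and 507 genes passed in place of 315. In Tert- 901 genes passed in place of 258. Of all genes tested in this fit, 7.87% rose in the average, 1.82% in Tert+ and 3.11% in Tert-.

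The same library stood out in a stress gene that was left off the list of targets followed here. Whether p53 acts on that gene was not tested, so its level does not separate this state from p53 activity. Atf3, a stress-induced transcription factor of the immediate early kind, was at 376 CPM in it against 26.5 and 25.2 CPM in the other Tert- libraries without RT. In Tert+ without RT Atf3 was at 64.9, 22.3 and 10.8 CPM, and after RT it ranged from 27.9 to 104 CPM over both populations. The sum of 12 immediate early genes, a list written after values had been seen, was 8473 CPM in that library, 3967 to 5573 CPM in the other 5 without RT and 5190 to 7680 CPM after RT. The part of this state in the levels of Cdkn1a, Mdm2 and Sesn2 was not tested.

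**Figure D4:**
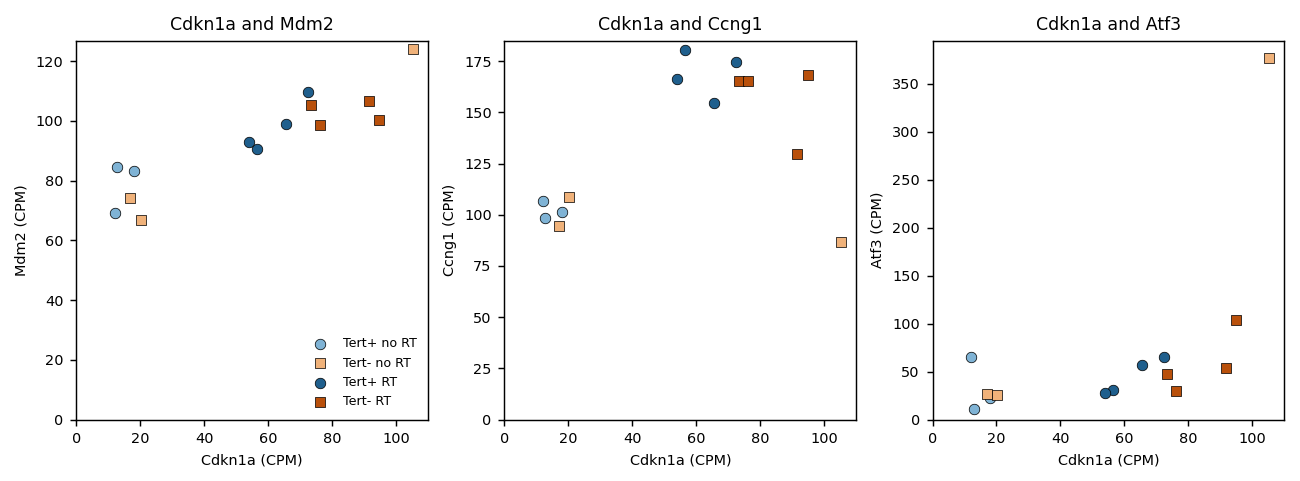
Cdkn1a in CPM on the horizontal axis against Mdm2, Ccng1 and Atf3 in CPM on the vertical axes, 1 point per library, coloured by group. Tert- replicate 1 without RT sits apart at 105 CPM of Cdkn1a with 124 CPM of Mdm2 and 376 CPM of Atf3, while its Ccng1 level of 86.7 CPM is below that of every library after RT.

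Whether RT acted differently on the targets in Tert+ and Tert- was tested as the difference of both RT effects. No target passed (0 of 10, edgeR, 0 at an unadjusted p under 0.05, and 0 by DESeq2 or limma voom), where 0% of all genes passed, 578 genes or 3.63% had an unadjusted p under 0.05, and DESeq2 called 12 and limma voom 0. DESeq2 gave no adjusted p for Cdkn1a, so its count covers the other targets only. The difference was 1.29 for Cdkn1a with a 95% interval of -0.080 to 2.67 (unadjusted p = 0.0631), and -0.064 without Tert- replicate 1 of the group without RT. It was 1.92 for Zmat3 with an interval of -0.30 to 4.14 (unadjusted p = 0.0857). For the other risers the intervals ran from -0.37 to 0.42 for Ccng1, from -0.60 to 0.50 for Sesn1 and from -2.27 to 1.05 for Phlda3, so a 4-fold difference lies outside those of Ccng1 and Sesn1 and inside that of Phlda3. For Ccng1 and Sesn1 that says little, because their averaged rises were only 1.64- and 1.70-fold. Smaller differences within the intervals remain possible.

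Between Tert+ and Tert- cells without RT, 0 of 10 targets passed (edgeR, with 0.0377% of all genes past the threshold, and 0 targets by DESeq2 or limma voom). Here too DESeq2 gave no adjusted p for Cdkn1a. At an unadjusted p under 0.05 there were 2 targets, and 4.5% of all genes. Cdkn1a was lower in Tert+ by a log2 difference of -1.73 ± 0.501 (unadjusted p = 0.00341, adjusted p = 0.671), which was -0.39 ± 0.235 without Tert- replicate 1. Zmat3 was at -1.91 ± 0.807 (unadjusted p = 0.0316, adjusted p = 1), and its ranges did not overlap, against 4.83% of genes lower and 4.04% higher in Tert+ without overlap. The summed level of 9 macrophage markers differed between the same groups, at 125 to 284 CPM in Tert+ and 1607 to 1944 CPM in Tert-, and its part in these differences was not tested.

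After RT, again 0 of 10 targets passed between the populations (edgeR, with 0.0126% of all genes past the threshold, 0 targets and 7.39% of genes at an unadjusted p under 0.05, and 0 targets by DESeq2 or limma voom). Again DESeq2 gave no adjusted p for Cdkn1a. Cdkn1a was at 54.0 to 72.3 CPM in Tert+ and 73.4 to 94.8 CPM in Tert-, with no overlap, against 2.46% of genes lower and 2.43% higher in Tert+ without overlap. Its log2 difference was -0.44 ± 0.418 with an interval of -1.33 to 0.45 (adjusted p = 0.928). For Sesn1 the mean was 137 ± 17.4 CPM in Tert+ cells and 137 ± 18.3 CPM in Tert- cells (mean ± SD of 4 libraries), and the interval of its difference was -0.36 to 0.36. Macrophage markers summed to 107 to 199 CPM in Tert+ and 263 to 1236 CPM in Tert- after RT.

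Set on a scale that allows genes to be compared, CPM per kilobase of the table's gene length, the mean level over the 14 libraries was highest for Ccng1 at 38.7, followed by Sesn1 at 28.4, Mdm2 at 18.3, Cdkn1a at 15.5, Trp53inp1 at 10.5, Phlda3 at 6.49, Aen at 6.46, Sesn2 at 5.34, Eda2r at 0.418 and Zmat3 at 0.368 CPM per kilobase. Ccng1 was above Sesn1 in 14 of 14 libraries, Sesn1 above Mdm2 in 13 and Sesn2 above Eda2r in 14. The other neighbours changed places between libraries, and the order also differed between groups. In Tert+ without RT, Cdkn1a at 4.02 CPM per kilobase stood below Trp53inp1 at 9.25 and Aen at 6.65, and after RT, at 17.5, above both, at 11.4 and 5.89. Phlda3 was below Aen in both populations without RT and above it in both after RT. Mdm2 was above Cdkn1a in 10, Cdkn1a above Trp53inp1 in 10, Trp53inp1 above Phlda3 in 11, Phlda3 above Aen in 8, Aen above Sesn2 in 10 and Eda2r above Zmat3 in 7. In Tert+ cells Cdkn1a went from 4.02 ± 0.899 CPM per kilobase without RT (SD, n = 3) to 17.5 ± 2.38 after it (n = 4), and Phlda3 from 1.53 ± 0.920 to 8.76 ± 1.996.

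The genes whose pattern over the 14 libraries was most like that of Cdkn1a were Impact, H2-Q6, Itpkb, Spag9 and Pkd1, with root mean square differences of standardised log2 CPM of 0.293, 0.301, 0.310, 0.335 and 0.336 SD units. Of the other targets Mdm2 was the nearest, at 0.467 and rank 75 among the genes tested, and Aen the farthest, at 1.23 and rank 5831. Sesn1, Phlda3 and Sesn2 stood at 0.759, 0.784 and 0.790, and Ccng1 at 0.854. The libraries share RT state and the library that was high in Cdkn1a, and the values are given as a description.

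The p53 gene itself and the proteins that control it were followed as a list of 16, of which 15 were tested. Averaged over both populations, 1 rose, 1 fell and 13 did not pass, with a median log2 fold change of 0.17 (edgeR). These counts are near the shares of all genes tested, 6.36% and 7%. Trp53, which encodes p53, had mean levels of 252 ± 38.1 and 253 ± 29.3 CPM in Tert+ and Tert- without RT (SD, n = 3 each) and 213 ± 19.96 and 227 ± 13.4 CPM after it (n = 4 each), with a log2 fold change of -0.20 ± 0.0928 (adjusted p = 0.165). Mdm4, a relative of Mdm2 that blocks the activation domain of p53, rose by 1.18 ± 0.195 (adjusted p = 0.00192), from 78.2 ± 6.17 and 92.5 ± 40.5 CPM to 169 ± 46.3 and 221 ± 42.2 CPM, and passed in all 14 fits with 1 library left out. Chek1, a checkpoint kinase of replicating cells, fell from 5.59 ± 1.92 and 2.94 ± 0.810 CPM to 0.569 ± 0.672 and 0.788 ± 0.406 CPM (adjusted p = 0.0436) but passed in 3 of those 14 fits. The damage kinase genes Atm and Chek2, whose proteins act on p53, had log2 fold changes of 0.75 ± 0.278 and 0.73 ± 0.333 and did not pass (adjusted p = 0.0866 and 0.161). For Chek2 that average joins values of opposite sign, 1.80 ± 0.490 in Tert+ and -0.34 ± 0.461 in Tert- (adjusted p = 0.0713 and 0.759), whose difference of 2.14 ± 0.664 did not pass (unadjusted p = 0.00551, adjusted p = 0.9999). The values of Trp53, Atm and Chek2 were chosen for printing after they had been seen.

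Among 8 further p53 targets of the cell cycle 2 rose, none fell and 6 did not pass, with a median log2 fold change of 0.30 (edgeR, averaged over both populations, where 6.36% of all genes rose and 7% fell). Gadd45a, a growth arrest protein that binds PCNA, rose by 0.78 ± 0.225 (adjusted p = 0.0336), and Plk2, a polo-like kinase, by 0.82 ± 0.227 (adjusted p = 0.0273). With 1 library left out they passed in 6 and 9 of 14 fits. Among 12 further targets of apoptosis 2 rose, 3 fell and 7 did not pass, with a median of 0.18, against the same shares over all genes. Tnfrsf10b, the mouse death receptor for TRAIL, rose from 4.10 ± 0.857 and 4.10 ± 2.04 CPM in Tert+ and Tert- to 11.7 ± 6.45 and 11.3 ± 3.09 CPM (log2 fold change 1.48 ± 0.353, adjusted p = 0.0140), and passed in all 14 fits with 1 library left out. Bbc3, the cell death protein PUMA, rose by 1.25 ± 0.395 (adjusted p = 0.0477) and passed in 5 of them. It was named after its value was seen. Trp53i11, named for its induction by p53, fell by 0.67 on the log2 scale (SE 0.124, adjusted p = 0.00383), from 323 ± 84.0 and 305 ± 64.6 CPM to 188 ± 14.6 and 207 ± 15.7 CPM, and passed in all 14 such fits. The death agonist Bid and the adaptor Siva1 fell by 0.59 and 0.89 on the log2 scale (adjusted p = 0.0356 and 0.0440), and passed in 5 and 3 of them.

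Of 12 listed targets in DNA repair and metabolism, 11 were tested and 0 passed in the average (edgeR), with a median log2 fold change of 0.094. At an unadjusted p under 0.05 (edgeR) there was 1, against 4593 of the 15915 genes tested. DESeq2 and limma voom each called 1, against 19% and 15.8% of all genes. The gene at an unadjusted p under 0.05, named after its value was seen, was Gdf15, a secreted stress cytokine, with a log2 fold change of 2.67 ± 1.12 (adjusted p = 0.128). The 2 with the highest expression were Ephx1, an epoxide hydrolase, at 0.14 ± 0.129 (adjusted p = 0.506) and Tap1, a peptide transporter for antigen presentation, at -0.071 ± 0.101 (adjusted p = 0.695).

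Paralogs of the 10 targets numbered 14, of which 11 were tested. Averaged over both populations 4 rose, none fell and 7 did not pass, with a median log2 fold change of 0.44 (edgeR), where 6.36% of all genes rose and 7% fell. Cdkn1b, which encodes the p21 relative p27, rose from 11.9 ± 2.46 and 15.0 ± 2.45 CPM in Tert+ and Tert- to 32.3 ± 8.27 and 50.1 ± 4.22 CPM, a log2 fold change of 1.59 ± 0.179 (adjusted p = 0.000226) that passed in all 14 fits with 1 library left out. It also passed in each population alone, at 1.44 ± 0.252 in Tert+ and 1.74 ± 0.255 in Tert- (adjusted p = 0.0159 and 0.0100), in Tert+ not without replicate 2 or 3 without RT (adjusted p = 0.0547 and 0.0819). Trp53inp2, the autophagy protein related to Trp53inp1, rose by 0.91 ± 0.251 (adjusted p = 0.0273) and passed in 8 of 14 such fits of the average. Isg20, an exonuclease related to Aen, rose by 0.89 ± 0.229 (adjusted p = 0.0201), though not without Tert+ or Tert- replicate 3 without RT (adjusted p = 0.0583 and 0.0600). Mdm4, given above, is the fourth.

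Of 12 cyclins, cyclin-dependent kinases and PCNA, the proteins that p21 binds, 4 fell, none rose and 8 did not pass in the average, with a median log2 fold change of -0.53 (edgeR), where 7% of all genes fell and 6.36% rose. Cdk4, a kinase of the start of the cycle, fell by 0.70 on the log2 scale (SE 0.138, adjusted p = 0.00521), from 136 ± 8.78 and 139.7 ± 18.4 CPM to 86.6 ± 25.9 and 83.6 ± 9.35 CPM. Its partner cyclin D2, Ccnd2, fell by 0.82 on that scale (SE 0.174, adjusted p = 0.00725), from 195 ± 12.5 and 148 ± 44.6 CPM to 134 ± 48.7 and 68.7 ± 11.2 CPM. The mitotic cyclin Ccnb1 went from 11.7 ± 4.69 and 5.41 ± 5.11 CPM to 3.48 ± 2.40 and 0.313 ± 0.362 CPM (adjusted p = 0.0141). Ccna2, the cyclin of DNA synthesis, went from 7.07 ± 3.15 and 6.62 ± 7.93 CPM to 0.727 ± 1.46 and 0.241 ± 0.215 CPM (adjusted p = 0.0245), though not past the threshold without Tert+ replicate 3 (adjusted p = 0.0614) or Tert- replicate 1 (adjusted p = 0.0710) of the groups without RT. The other 3 passed in all 14 fits with 1 library left out. The germinal centre B cell markers summed to 760 to 1040 CPM in Tert+ and 639 to 850 CPM in Tert- without RT. After RT these sums were 359 to 607 and 430 to 539 CPM. Such sums weigh the most abundant markers most. Taken gene by gene, these 8 markers had median log2 fold changes of -4.105 in Tert+, -2.488 in Tert- and -3.834 in the average (edgeR). Their part in the fall of these cyclins and of Chek1 was not tested.

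Of 21 partners of the sestrins in the mTORC1 pathway, 1 rose, 2 fell and 18 did not pass in the average, with a median log2 fold change of -0.12 (edgeR). These counts are near the shares of all genes, of which 6.36% rose and 7% fell. Mtor, the kinase of the complex, rose by 0.77 ± 0.234 (adjusted p = 0.0417), while Seh1l, a subunit of the sestrin-binding complex GATOR2, fell by 0.37 on the log2 scale (SE 0.106, adjusted p = 0.0301) and Keap1, a stress adaptor that binds sestrins, fell by 0.44 (SE 0.118, adjusted p = 0.0255). With 1 library left out they passed in 5, 6 and 8 of 14 fits.

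**Figure D5:**
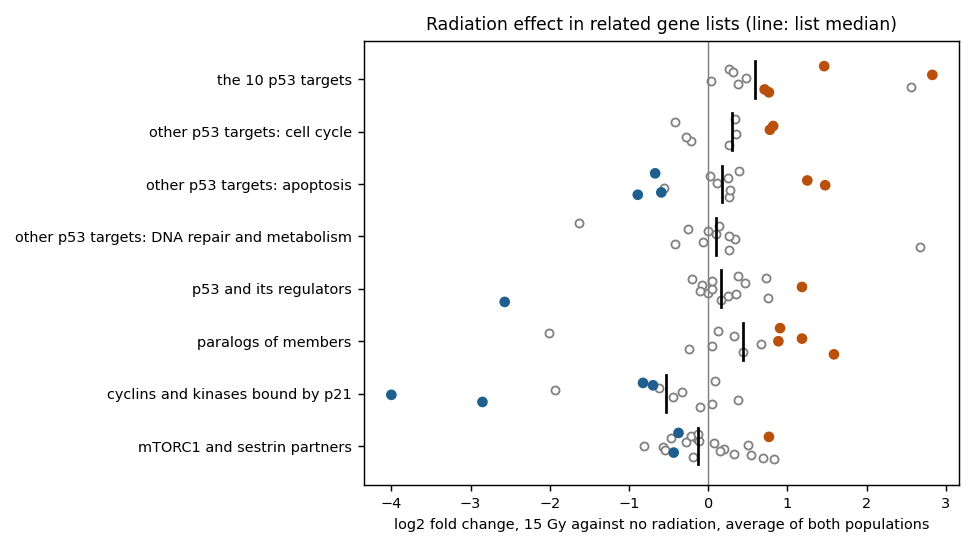
Log2 fold change with RT averaged over both populations for each tested gene of the 10 targets and of the related lists, 1 point per gene, with filled points where the adjusted p was under 0.05 and a line at each list's median. The median is 0.60 for the 10 targets, 0.44 for their paralogs and -0.53 for the cyclins and kinases, against -0.0099 for all genes.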

How the data were processed

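RNA was measured in 14 libraries of sorted submandibular gland cells. The deposited table holds read counts per gene, per the file headers, without normalisation by the authors, and the submitters' processing notes name HISAT2, without a version, and the build mm10. The counting program, annotation release and strand setting are not given in the sources used here. The analysis used edgeR 4.0.16 under R 4.3.3. Low counts were removed by filterByExpr over the 4 groups, TMM factors set the scale, and the model was fitted with 1 term per group over all 14 libraries with robust dispersions. Two-sided quasi-likelihood tests were adjusted by Benjamini and Hochberg over 15915 genes, with a threshold of 0.05. CPM are counts relative to the TMM-scaled library total. Total counts of 5520412 to 15943597 per library set the precision, and limits at 0 are 3 counts of the library. Reads carry no molecular identifiers, so these limits cover counting error only, while the 95% intervals of fold changes come from the edgeR fit and include the spread between libraries.

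The 6 comparisons were the RT effect in Tert+, in Tert-, averaged and as a difference, and Tert+ against Tert- without and after RT. They share libraries and are not independent of each other. Alternatives were DESeq2 1.42.0, limma 3.58.1 voom with and without a replicate block, other scalings, no filter, fits on the compared libraries only, a replicate block, and each library left out. The 10 targets, lists and tests were chosen with earlier results of these data known. All 10 targets are named. Of each further list up to 4 members past the threshold in any RT effect, by smallest adjusted p in the average, are named, and a list with no such member is given by its 2 most expressed genes. The 5 genes most like Cdkn1a were taken among those whose mean log2 CPM was 3 or more. The marker lists and the immediate early list are used as summed CPM or counts of calls. RefSeq promoters of GRCm38.p6 were used for sequence.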

Additional observations from a re-analysis of the deposited data

Results flagged for a closer look

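In 70 groups of 4 libraries examined for the named genes, 3 had a library whose gap to the nearest of the others took up most of the group's range. Chance sets apart about 1 in 20 groups. The cyclin G1 gene Ccng1 was at 129.8 CPM in Tert- replicate 4 after RT, against 165.1 to 168.1 CPM in the other 3, and still above every library without RT. The RNA-binding protein gene Zmat3 was at 2.358 CPM in Tert- replicate 1 after RT, against 4.832 to 5.025 CPM in the other 3. The cyclin gene Ccna2 was at 2.91 CPM in Tert+ replicate 2 after RT and at 0 in the other 3 of that group.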

How the results depend on the processing

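The averaged RT effect kept its 4 risers when each library was left out in turn (4 to 5 targets past the threshold, 1211 to 2516 genes) and under the other settings, except that DESeq2 gave no adjusted p for Cdkn1a and called the other 3. Calls within a single population were less stable: leaving out a library gave 0 to 4 targets and 21 to 507 genes in Tert+, and 0 to 4 targets and 18 to 901 genes in Tert-. In Tert+, 315 genes passed, against 1057 by DESeq2, 482 by limma voom, 495 by voom with a replicate block and 49 in a fit on the compared libraries only, which called 1 target. In Tert-, 258 passed, against 1198, 405, 421 and 88, with 1 target in the last. For the difference of RT effects 0 genes passed, 12 by DESeq2, and 0 to 1 with a library left out. Between the populations without RT 6 passed, 74 by DESeq2, 26 by voom, 34 by voom with the block, 16 without a filter, and 1 to 13 with a library left out. After RT 2 passed, 109 by DESeq2, 0 by voom with or without the block, 4 without a filter, 1 on the compared libraries only, 1 with the block by RT state, and 0 to 7 with a library left out. In these last 3 comparisons 0 targets passed under any setting that gave an adjusted p, and DESeq2 gave none for Cdkn1a. The cause of these changes was not tested, beyond the fewer samples of some fits.

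Tert+ and Tert- libraries of the same replicate number and RT state carry adjacent running numbers, and whether they share a gland is not stated. Their deviations from the group means correlated at 0.106, 0.119 and -0.0021 without RT and at 0.028, 0.0521, 0.0304 and -0.0491 after it. With such libraries as a random block, voom gave a consensus correlation of 0.121. These values do not settle whether the libraries pair, and the main fit treats all 14 as independent. In the average 1978 genes passed by voom with that block and 2519 without it, with the same 4 targets. With the replicate number as a block in edgeR, 3 targets passed in Tert+ (Ccng1, Phlda3 and Sesn1, with Cdkn1a at an adjusted p of 0.0672), 3 in Tert- and 4 in the average. Of all genes tested in that fit, 1.67%, 1.61% and 10.2% passed in these 3 comparisons.

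Signs turned for values near 0 that passed no test. Between the populations without RT, Trp53inp1 went from -0.0022 to 0.00016 with upper quartile factors, 0.027 by voom, 0.032 by voom with the block, 0.059 with the block and 0.082 with the block by RT state, and Eda2r from 0.85 to -0.062 and -0.040 by voom without and with the block. After RT, Zmat3 went from 0.0091 to -0.19 by voom, -0.19 by voom with the block, -0.047 with the block and -0.015 with the block by RT state. Sesn1 went from -0.00098 to 0.0091 without a filter, 0.0019 on the compared libraries only, 0.0020 with the block and 0.00087 with the block by RT state. With a library left out, values of both signs were found for Aen in the average (-0.031 to 0.11) and Ephx1 in Tert- (-0.029 to 0.33). In the difference of RT effects they were found for Cdkn1a (-0.064 to 1.70), Ccng1 (-0.064 to 0.10), Sesn1 (-0.25 to 0.14), Mdm2 (-0.23 to 0.26), Trp53inp1 (-0.32 to 0.26), Eda2r (-2.11 to 0.86) and Sesn2 (-0.73 to 1.47). Between the populations without RT they were found for Phlda3 (-0.24 to 1.07), Ccng1 (-0.013 to 0.17), Sesn1 (-0.13 to 0.24), Mdm2 (-0.32 to 0.14), Trp53inp1 (-0.28 to 0.27), Eda2r (-1.01 to 1.64) and Sesn2 (-1.62 to 0.56), and after RT for Sesn1 (-0.086 to 0.057), Trp53inp1 (-0.23 to 0.15), Eda2r (-1.25 to 0.29), Zmat3 (-0.22 to 0.23) and Sesn2 (-0.52 to 0.029). Low counts limit Eda2r, Zmat3 and Phlda3.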
